A study of Homo sapiens with 6 samples.

Results

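The DUSP MAP kinase phosphatases are dual-specificity phosphatases, enzymes that switch off MAP kinases. Their transcripts were followed in TFK-1, an established cell line from an extrahepatic cholangiocarcinoma, with and without overexpression of HOXA5, a homeobox transcription factor. The members were DUSP1, DUSP2, DUSP4, DUSP5, DUSP6, DUSP7, DUSP8, DUSP10, DUSP14 and DUSP16, taken as every array probe whose single gene symbol in the platform annotation was 1 of these names. The rule found 13 probes of 10 genes, among 31741 probes and 18336 genes with such a probe. RNA of 3 samples labelled HOXA5 overexpression and 3 labelled Normal control was measured on 1-colour Human OneArray slides, 1 slide per sample. All were stable lines made with lentivirus at a multiplicity of infection of 20 for 24 h and selected with puromycin at 1 µg/ml. By the study's methods, the virus of the HOXA5 group carried a Flag-tagged HOXA5 and each virus had a negative control virus. Both groups derive from 1 cell line, and the labels do not name separate cultures, so each p-value is set against a spread between samples that may be no more than technical. The comparison asks which of these phosphatase transcripts differ when HOXA5 is overexpressed.

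MAP kinases (ERK, JNK and p38) are active only when a threonine and a tyrosine in their activation loop are both phosphorylated, and the MAP kinase phosphatases remove both phosphates. Several of these phosphatases are themselves transcribed in response to MAP kinase activity, so they act as negative feedback. Of the members, DUSP1, DUSP2, DUSP4 and DUSP5 are nuclear inducible enzymes, and DUSP6 and DUSP7 are cytoplasmic enzymes that prefer ERK. DUSP8, DUSP10 and DUSP16 prefer JNK and p38, and DUSP14 is a small atypical enzyme without the MAP kinase binding domain. An array reads transcript levels, so neither phosphatase activity nor MAP kinase phosphorylation was measured here.

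Of the 10 genes, 5 rose (DUSP1, DUSP4, DUSP5, DUSP6 and DUSP10), 1 fell (DUSP7) and 4 did not pass the test (DUSP2, DUSP8, DUSP14 and DUSP16) at an adjusted p under 0.05 in limma. Over all genes tested, 13.1% rose, 11% fell and 24% passed in either direction. Of the 13 member probes 7 passed, against 20.5% of all probes. The rise was at least 2-fold in 4 of the members (DUSP4, DUSP5, DUSP6 and DUSP10), against 3.83% of all genes, and 0 members fell by as much, against 2.39%. The median change of the 10 members was 0.57 on the log2 scale, and that of all genes was -0.01. The members were chosen with earlier results of these data known, so these counts and medians are descriptive. Normalized levels of the control and HOXA5 arrays did not overlap in 7 of the 10 genes, against 41.4% of all genes. Changes below are log2 fold changes of HOXA5 over control ± SE from limma, with n = 3 arrays per group, on the scale of intensity plus 50, which understates changes of dim probes.

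**Figure D1:**
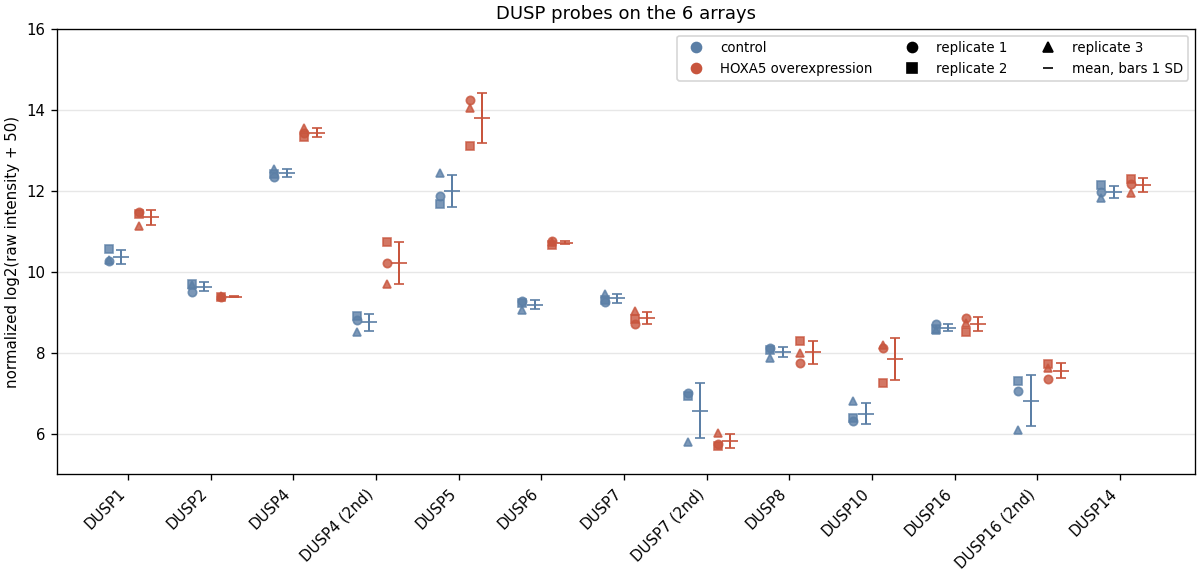
Normalized log2(raw intensity + 50) of each of the 13 probes (x axis) on the 3 control arrays (blue) and the 3 HOXA5 arrays (red). Marker shapes stand for replicate numbers, and the bars beside them show the mean and 1 SD; DUSP1, DUSP4, DUSP5, DUSP6 and DUSP10 lie higher on all HOXA5 arrays, while DUSP8, DUSP14 and the brighter DUSP16 probe overlap between groups.

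Array depth and labels were examined first. Median raw intensity was 126 to 180 on the control arrays and 95 to 177 on the HOXA5 arrays, with the lowest on HOXA5 replicate 3, and 17150 to 21154 probes per array were not marked as dim. After normalization, HOXA5 replicate 2 correlated at 0.973 to 0.979 with the other HOXA5 arrays, which correlated at 0.992 with each other, and control arrays correlated at 0.990 to 0.995, so results are also given without it. The probe that stands for HOXA5 rose by 1.94 ± 0.12 (adjusted p = 0.000766), and its other probe fell by 0.34 ± 0.07 (adjusted p = 0.0253). On control arrays the probe that fell was the brighter (mean log2 level 7.89 against 7.07), and on HOXA5 arrays the probe that rose (9.01 against 7.55). The probe that rose thus stands for the gene through its level on HOXA5 arrays, so its rise is not an independent check of the labels. Of 9 measured biliary and epithelial markers, 0 were dim on all arrays and their summed normalized intensity, offset included, was 63423 to 67345 on control and 97224 to 103541 on HOXA5 arrays, with 5 rises (ELF3, CDH1, CLDN4, SOX9 and KRT19), 1 fall (MUC1) and 3 that did not pass (KRT7, KRT8 and EPCAM). MUC1 fell by 0.46 ± 0.08 (adjusted p = 0.0128), with an adjusted p of 0.0580 without control replicate 1 and 0.0532 without control replicate 2. Of 10 markers of other cell types, 5 were dim on all arrays (PTPRC, CD3E, DCN, COL1A2 and ALB), 1 rose (APOA1, 0.89 ± 0.19, adjusted p = 0.0279) and the sum was 2195 to 2612 on control and 2539 to 3565 on HOXA5 arrays; the part of both marker lists in the phosphatase results was not tested. The APOA1 call was lost without control replicate 1 (adjusted p = 0.0987), control replicate 3 (0.0913), HOXA5 replicate 1 (0.0666) or HOXA5 replicate 3 (0.0598).

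The stretch before the start of a gene holds sites through which transcription factors act, and the promoters of 3 members are shown because they differ in what they hold: DUSP1 rose, DUSP6 had the smallest adjusted p of the members, and DUSP2 did not pass. Each is the 250 bases before the RefSeq start of the gene, on the minus strand of GRCh38.p14, written 5′ to 3′ in gene direction. Capitals mark the cAMP response element (CRE) TGACGTCA, its shorter core TGACG or CGTCA, the E box CACGTG and the TATA box TATAAA. The intervals are chr5:172771196-172771445 for DUSP1, chr2:96145441-96145690 for DUSP2 and chr12:89352502-89352751 for DUSP6.
DUSP1: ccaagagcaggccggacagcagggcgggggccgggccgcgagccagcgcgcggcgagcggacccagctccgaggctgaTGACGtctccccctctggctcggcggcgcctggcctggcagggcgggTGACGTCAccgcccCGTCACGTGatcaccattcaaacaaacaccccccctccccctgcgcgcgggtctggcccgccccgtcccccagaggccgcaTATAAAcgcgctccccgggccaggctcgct
DUSP2: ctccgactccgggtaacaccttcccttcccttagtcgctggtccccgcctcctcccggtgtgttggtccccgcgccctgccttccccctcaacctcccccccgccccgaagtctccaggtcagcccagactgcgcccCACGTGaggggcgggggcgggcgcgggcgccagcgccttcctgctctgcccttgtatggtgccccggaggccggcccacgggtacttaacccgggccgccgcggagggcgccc
DUSP6: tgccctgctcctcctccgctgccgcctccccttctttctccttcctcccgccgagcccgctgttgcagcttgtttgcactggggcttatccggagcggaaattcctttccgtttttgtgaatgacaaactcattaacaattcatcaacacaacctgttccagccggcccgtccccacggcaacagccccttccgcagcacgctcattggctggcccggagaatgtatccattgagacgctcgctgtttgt

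The DUSP1 promoter held 1 CRE at positions -125 to -118, counted back from the base before the start, an E box at -108 to -103 and a TATA box at -30 to -25. It held 4 copies of the shorter core, of which 2 lie within the CRE and 1 overlaps the E box. The DUSP2 promoter held 1 E box at -113 to -108. The DUSP6 window held none of the motifs searched, and its GC content was 57.2%, against 74.4% for DUSP1 and 74% for DUSP2.

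Promoters of 8 of the 10 members, all but DUSP4 and DUSP5, were found in the RefSeq table (9 windows, since DUSP10 has 2 starts). Both strands were searched for the CRE TGACGTCA, its core TGACG, the AP-1 site TGANTCA, the E box CACGTG, the ATF4 and C/EBP element TGATGNAA, the homeobox core TAATTA, the TATA box TATAAA, the GC box GGGCGG and the CArG box. The windows of DUSP8, of DUSP14 and of 1 of the 2 DUSP10 starts lie inside the annotated spans of their genes. A CRE was found in DUSP1 and in 2 copies in DUSP8, and 1.65% of 35116 promoters of this length held one. The core TGACG occurred in 21.2% of promoters, the E box in 6.34% and the TATA box in 10.7%. GC boxes were found in the windows of DUSP1, DUSP2, DUSP7, DUSP8, DUSP10, DUSP14 and DUSP16, and in 42.6% of all promoters. The AP-1 site (6.57% of promoters), the ATF4 and C/EBP element (3.14%), the homeobox core (4.35%) and the CArG box (1.16%) matched in none of the 9 windows. Of these 8 members, those with a CRE were DUSP1, which rose, and DUSP8, which did not pass. A match is a run of letters, not a measured binding site.

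**Figure D2:**
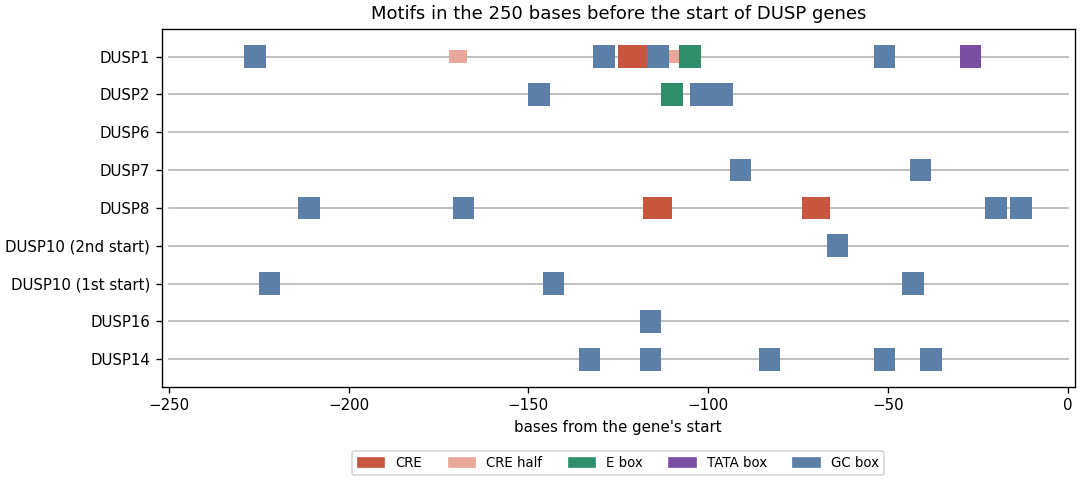
Positions of the motifs found in the 250 bases before the start of 8 members (9 windows; x axis, bases from the start). Colours stand for the motif; DUSP1 and DUSP8 hold a CRE, DUSP1 and DUSP2 an E box, DUSP1 a TATA box, and DUSP6 none of the motifs.

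Among the nuclear inducible phosphatases, DUSP1, DUSP4 and DUSP5 rose, and DUSP2 did not pass. DUSP1, an immediate early gene whose product acts on p38, JNK and ERK, had raw intensities of 1361, 1692 and 1056 on control replicates 1, 2 and 3 and of 3177, 2800 and 1593 on HOXA5 replicates 1, 2 and 3. Its normalized log2 levels were 10.27, 10.58 and 10.29 on control and 11.48, 11.43 and 11.14 on HOXA5 arrays, so each HOXA5 array lay above each control array. DUSP1 rose by 0.97 ± 0.13 (1.96-fold, adjusted p = 0.00606). The rise was 0.94 without HOXA5 replicate 2 (adjusted p = 0.0143). It passed under 14 of 15 alternatives and not with the authors' scaled values (0.89, adjusted p = 0.0733).

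DUSP4, on chromosome 8, encodes a nuclear enzyme with activity on ERK, JNK and p38, and was read by 2 probes. The probe with the higher mean had raw intensities of 5824, 6429 and 5409 on control and 11595, 10175 and 8726 on HOXA5 arrays. All 3 HOXA5 arrays were above all 3 control arrays on the raw scale and after normalization. The probe rose by 1.01 ± 0.09 (2.01-fold, adjusted p = 0.00174), kept an adjusted p of at most 0.0125 under all 15 alternatives, and rose by 1.06 without HOXA5 replicate 2. The second DUSP4 probe had raw intensities of 467, 485 and 266 on control and 1324, 1736 and 553 on HOXA5 arrays. It rose by 1.47 ± 0.28 (adjusted p = 0.0185), in the same direction as the first and with a wider spread among HOXA5 arrays. The adjusted p of the second probe was 0.0699, 0.0535 and 0.0662 without control replicates 1, 2 and 3, 0.0611 without HOXA5 replicate 1, and 0.0858 with the authors' scaled values.

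DUSP5, a nuclear phosphatase specific for ERK (chr10:110497907-110511533), had a fitted log2 fold change above those of the other genes except DUSP10, whose change is known only as a bound and cannot be ranked against it. Its raw intensities were 4251, 3760 and 5116 on control and 20202, 8831 and 12182 on HOXA5 arrays, and the normalized log2 levels were 11.88, 11.67 and 12.45 against 14.25, 13.10 and 14.05. Each HOXA5 array was above each control array, with HOXA5 replicate 2 the lowest of its group and control replicate 3 the highest of its own. DUSP5 rose by 1.80 ± 0.36 (3.48-fold, adjusted p = 0.0218). Without HOXA5 replicate 2 the rise was 2.15 (adjusted p = 0.00643). The adjusted p was 0.0878 without control replicate 1, 0.0778 without control replicate 2, 0.0629 without HOXA5 replicate 1 and 0.0684 without HOXA5 replicate 3, with rises of 1.59 to 1.73.

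DUSP2, an inducible nuclear phosphatase best known from activated immune cells, had raw intensities of 781, 890 and 670 on control and 727, 677 and 439 on HOXA5 arrays. The normalized levels were 9.51, 9.71 and 9.68 on control and 9.39, 9.38 and 9.40 on HOXA5 arrays. The groups did not overlap, and each HOXA5 array was slightly lower. The change of -0.25 ± 0.07 did not pass (adjusted p = 0.0657), with a 95% interval of -0.42 to -0.07 for the single probe. It passed in 1 of 15 alternatives, without control replicate 1 (-0.31, adjusted p = 0.0427).

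The cytoplasmic ERK phosphatases among the members, DUSP6 and DUSP7, moved in opposite directions. DUSP6, a feedback gene of the ERK pathway, had raw intensities of 668, 608 and 414 on control and 1927, 1664 and 1193 on HOXA5 arrays. Its normalized log2 levels were 9.29, 9.22 and 9.07 against 10.77, 10.68 and 10.74, with a small spread within each group and no overlap. DUSP6 rose by 1.53 ± 0.07 (2.89-fold, adjusted p = 0.000513), passed under all 15 alternatives with changes of 1.45 to 1.59, and rose by 1.57 without HOXA5 replicate 2 (adjusted p = 0.00167).

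DUSP7, the other cytoplasmic ERK phosphatase among the members, had raw intensities of 654, 646 and 565 on control and 440, 460 and 329 on HOXA5 arrays at its brighter probe. All HOXA5 arrays were below all control arrays. This probe fell by 0.48 ± 0.10 (adjusted p = 0.0270). The call was lost in 9 of 15 alternatives: with median scaling (0.0512), 75th percentile scaling (0.0600), cyclic loess (0.0612) and the trend and robust fit (0.0518), and without control replicates 1, 2 and 3 (0.0720, 0.0770 and 0.0872) or HOXA5 replicates 1 and 2 (0.0676 and 0.0505), values being adjusted p. Over the 15 alternatives the change ran from -0.56 to -0.41. The other DUSP7 probe was dim on 1 control array and on all HOXA5 arrays, with raw intensities of 100, 84 and 5 against 5, 2 and 8. Its groups overlapped and it did not pass (adjusted p = 0.202), and no fold is given for it.

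Of the phosphatases that prefer JNK and p38, DUSP10 rose and DUSP8 and DUSP16 did not pass. DUSP10 had raw intensities of 37, 38 and 47 on the control arrays, where it was dim on all 3, and of 267, 122 and 158 on the HOXA5 arrays, where it was not dim. It was at least 2.10-fold higher on HOXA5 arrays, the bound being set against the lowest level that counts as not dim on each array (adjusted p = 0.0272). HOXA5 replicate 2 was the lowest of its group, and the adjusted p without it was 0.00406. The call was lost without control replicates 1, 2 and 3 (adjusted p = 0.104, 0.0938 and 0.0518) and without HOXA5 replicates 1 and 3 (0.0850 and 0.0723).

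DUSP8 had raw intensities of 272, 243 and 155 on control and 192, 303 and 133 on HOXA5 arrays. The groups overlapped, and the HOXA5 arrays spread more widely than the control arrays. The change was -0.01 ± 0.16 (adjusted p = 0.971), with a 95% interval of -0.40 to 0.38, and its sign turned without control replicate 1 (0.04), control replicate 2 (0.01) or HOXA5 replicate 1 (0.12). At its brighter probe DUSP16, a phosphatase for JNK and p38, had raw intensities of 436, 375 and 274 on control and 488, 362 and 255 on HOXA5 arrays. The groups overlapped, and the change was 0.08 ± 0.10 (adjusted p = 0.657, 95% interval -0.18 to 0.34). The second DUSP16 probe had raw intensities of 106, 122 and 16 on control, where 1 array was dim, and of 136, 189 and 93 on HOXA5 arrays. After normalization its groups did not overlap, and its change of 0.74 ± 0.33 did not pass (adjusted p = 0.181).

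DUSP14, a small atypical phosphatase, had raw intensities of 4518, 5278 and 3276 on control and 5096, 5047 and 2835 on HOXA5 arrays. The groups overlapped, and the change was 0.17 ± 0.12 (adjusted p = 0.416), with a 95% interval of -0.14 to 0.47. The intervals of the single-symbol DUSP8 probe, DUSP14 and the brighter DUSP16 probe therefore leave out a 2-fold change in either direction. That of the second DUSP16 probe (-0.07 to 1.56) does not leave out a 2-fold rise. A probe annotated to both DUSP8 and GLUD1P3, described below, rose by 1.86 ± 0.12, so DUSP8 is not settled by its single-symbol probe.

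**Figure D3:**
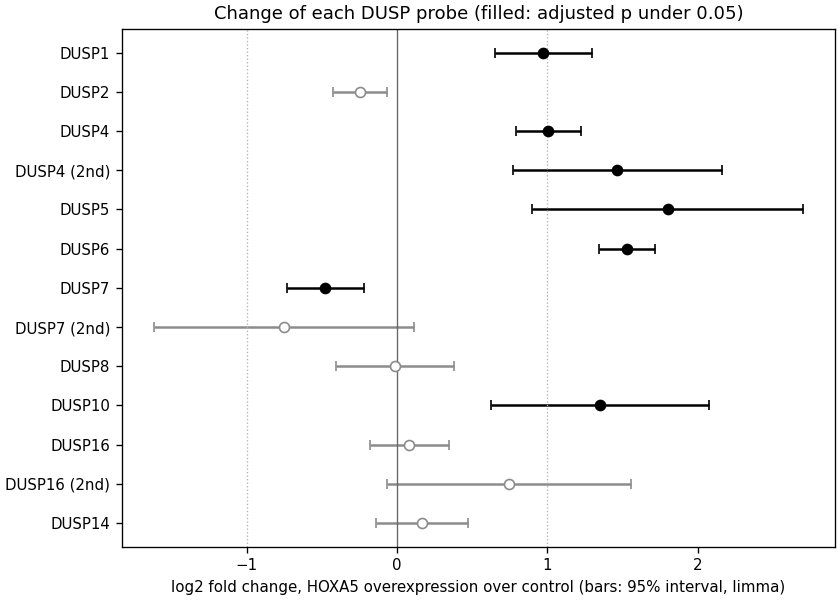
Log2 fold change of HOXA5 over control for each of the 13 probes (points) with its 95% interval from limma (bars); filled points have an adjusted p under 0.05, and dotted lines mark a 2-fold change. DUSP10 is dim on all control arrays, so its point depends on the offset; 6 probes rose and 1 fell.

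The counts depended on single arrays. Of the 5 genes that rose, DUSP1, DUSP4 and DUSP6 passed with each of the 6 arrays left out in turn, and DUSP7, which fell, did not. Without control replicate 1, control replicate 2, HOXA5 replicate 1 or HOXA5 replicate 3, 3 members rose, and without control replicate 3, 4 did. Without HOXA5 replicate 2, 5 rose and 0 fell. Over all genes, 1310 of the 2399 that rose and 931 of the 2010 that fell passed with each array left out.

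**Figure D4:**
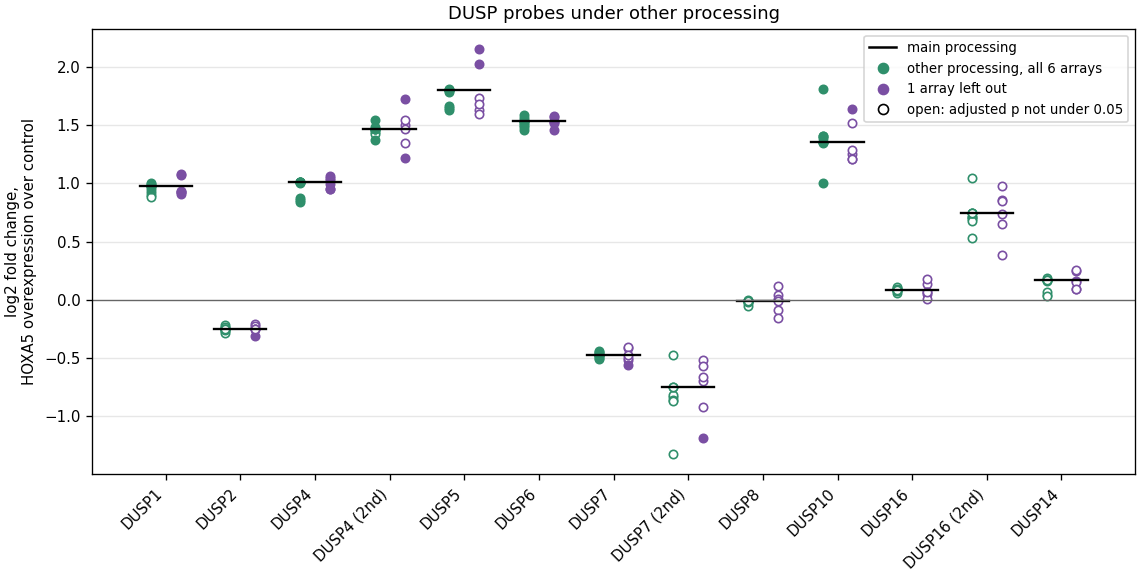
Log2 fold change of each of the 13 probes as processed here (black line), under other processing of the 6 arrays (green) and with 1 array left out (purple). Filled points have an adjusted p under 0.05; DUSP6 and the brighter DUSP4 probe are filled throughout, and the DUSP8 points lie on both sides of 0.

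The genes around the MAP kinases were counted in 9 lists with 128 measured genes. Over all genes, 13.1% rose and 11% fell. The lists, like the members, were chosen with earlier results of these data known, so their counts and medians are descriptive. Of the transcription factors that MAP kinases phosphorylate, or immediate early genes beside them, 8 of 18 rose and 0 fell (median 0.71). EGR1, an immediate early factor, rose by 3.13 ± 0.14, JUN by 2.97 ± 0.08 and FOS, its AP-1 partner, by 2.78 ± 0.09 (adjusted p = 0.000430, 0.000206 and 0.000206). FOS had raw intensities of 381, 424 and 294 on control and 2939, 3027 and 1881 on HOXA5 arrays, with no overlap between the groups. With each array left out, 6 of the 8 still passed.

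Of 16 ERK feedback and output genes other than DUSP genes, 7 rose and 2 fell (median 0.63). SPRY1, a Sprouty inhibitor of receptor signalling, rose by 0.99 ± 0.10 (adjusted p = 0.00257) and EPHA2, a receptor tyrosine kinase, by 0.77 ± 0.10 (adjusted p = 0.00532). SPRY2, another Sprouty gene, was dim on all control arrays and at least 1.52-fold higher on HOXA5 arrays (adjusted p = 0.0104). These 3 and SPRED3 passed with each array left out. ETV4 (-0.49) and CCND1 (-0.28), which fell, lost the call without any array but HOXA5 replicate 2 (adjusted p up to 0.0905 and 0.106). ERRFI1, a feedback inhibitor of the EGF receptor, had raw intensities of 1278, 1016 and 1718 on control and 5837, 1804 and 2505 on HOXA5 arrays. As in DUSP5, HOXA5 replicate 2 was the lowest of its group, but the ERRFI1 groups overlapped after normalization and the change of 1.30 ± 0.47 did not pass (adjusted p = 0.120), though it did without HOXA5 replicate 2 (1.74, adjusted p = 0.0305).

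In the list of MAP kinases, 2 of 13 measured genes rose, 2 fell and 9 did not pass (median 0.05). The list holds ERK, JNK and p38 genes and others such as MAPK4, MAPK6 and NLK, so it is not a count of substrates. MAPK13, which encodes p38 delta, fell by 1.21 ± 0.16 (adjusted p = 0.00550), and it passed with each array left out. MAPK4, MAPK11 and MAPK7 had changes of 0.57, 0.27 and -0.37 that passed with all arrays. MAPK4 lost its call without any 1 control array or HOXA5 replicate 3 (adjusted p up to 0.0780), MAPK7 without any array but HOXA5 replicate 2 (up to 0.135) and MAPK11 without any 1 of the 6 arrays (up to 0.152). MAPK3, which encodes an ERK, had a change of 0.19 ± 0.13 (adjusted p = 0.371) and MAPK8, which encodes a JNK, of 0.44 ± 0.18 (adjusted p = 0.159). MAPK9, another JNK gene, is counted among those that did not pass by the probe that stands for it (0.24 ± 0.18, adjusted p = 0.426), while another of its 3 probes fell by 1.31 ± 0.12 (adjusted p = 0.00212). The next layer up, the MAP2 kinases, had 0 of 6 genes past the test in either direction (median -0.16).

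In the other lists the medians were between -0.15 and 0.15. Of the kinases activated by MAP kinases, 4 of 11 rose and 2 fell: RPS6KA2 rose by 1.61 ± 0.09 (adjusted p = 0.000669), MKNK2 by 1.59 ± 0.14 (0.00194), and RPS6KA4 fell by 1.14 ± 0.11 (0.00262). Of 22 RAS, RAF and MAP3 kinases, 3 rose and 4 fell, among them MAP3K8, dim on all control arrays and at least 1.64-fold higher (adjusted p = 0.000406), and HRAS, which fell by 0.92 ± 0.10 (0.00351). Of 18 measured dual-specificity phosphatases outside the member list, 3 rose (DUSP26 among them, though dim on all 6 arrays) and 2 fell, with 0 of the 5 past the test when each array was left out. Of 10 other phosphatases that act on MAP kinases, PPP2CA, the catalytic subunit of PP2A, fell by 0.58 ± 0.07 (0.00429) and PPM1A rose by 0.76 ± 0.10 (0.00625). The PPM1A rise is that of the probe that stands for it, and its other probes did not pass. Of 14 scaffolds, 1 rose and 0 fell. Over the 9 lists 29 of 128 genes rose and 13 fell, against 13.1% and 11% of all genes.

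**Figure D5:**
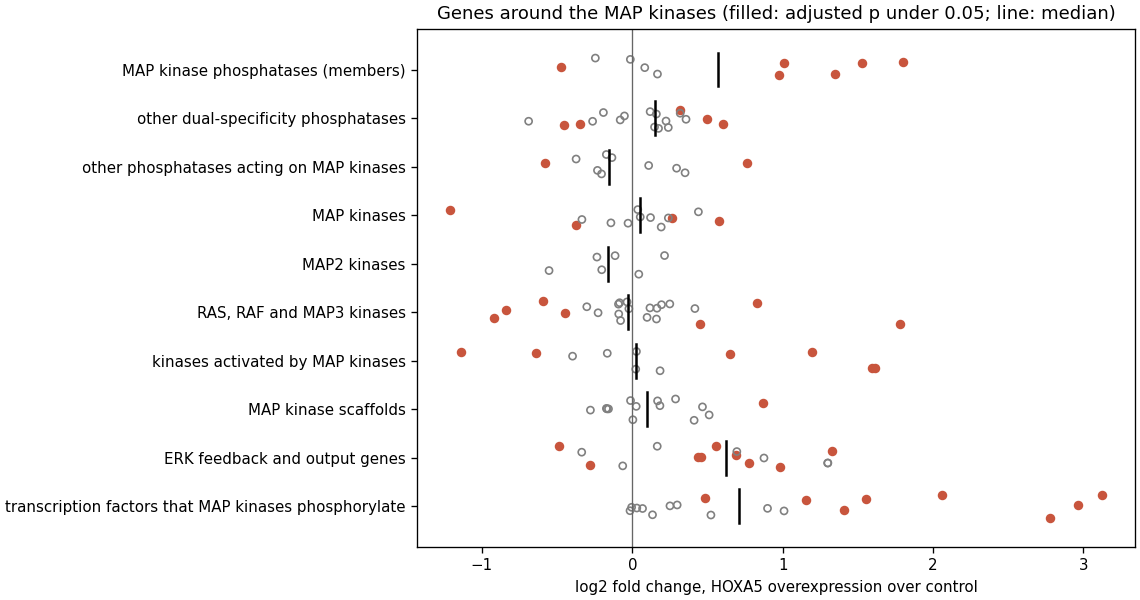
Log2 fold change of HOXA5 over control (x axis) for the 10 members and for the genes of the 9 lists around the MAP kinases, 1 point per gene. Filled points have an adjusted p under 0.05 and black lines are list medians. The members (0.57), the ERK feedback genes (0.63) and the transcription factors (0.71) have the highest medians. Members and lists were chosen with earlier results of these data known, so this ranking is descriptive.

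Genes with a pattern like that of DUSP5, the member with the largest fitted change at the offset used here, were ranked by the root mean square difference of centred log2 levels over the 6 arrays, among 14213 genes. With an offset of 16 the fitted changes of DUSP5 and DUSP10 were both 1.81. The closest were FEZF1-AS1 (0.0950), RASA4 (0.109), EPAS1 (0.146), PPP1R3B (0.154) and DNER (0.158). Their own changes were 1.68, 1.94, 1.58, 1.75 and 1.77. The likeness is a description over arrays that share 1 cell line.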

How the data were processed

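RNA of 6 TFK-1 samples (3 control, 3 HOXA5) was amplified, labelled with Cy5 and hybridized to 1-colour arrays. The authors deposited a table of linear raw intensity per probe and array, beside flags and a detection p-value; the deposited p-value entered no test. What the flags mean, and how background was handled, is not given in the sources used here; probes with the flag other than 0 are called dim, and flag 0 began at a raw intensity of 58 to 67. A second table that the authors deposited, processed in GeneSpring, holds intensity on the same linear scale. There, each array's raw values were multiplied by 1 constant (0.962, 0.908 and 1.08 for control and 0.952, 1.00 and 1.13 for HOXA5 replicates 1 to 3), with medians of 173, 151, 136, 168, 176 and 107; how the constants were set is unknown.

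An offset of 50 was added to raw intensity, log2 was taken, arrays were quantile normalized, and limma 3.58.1 (lmFit, eBayes; R 4.3.3) was fitted to all 31741 probes without filter or covariates. The p-values are two-sided, with Benjamini-Hochberg adjustment across the whole array. An adjusted p under 0.05 is a pass, and "rose" or "fell" means a pass whatever the fold; the study's own threshold adds 2-fold. Of the probes, 24740 carried 1 gene symbol, 977 several and 6024 none. For a gene with several probes, the one of highest mean level stands for it. Where a probe was dim on every array of 1 group, the change is a bound, taken against the lowest level at flag 0 on each array or the probe's own level if that was higher. Such a bound compares group means and leaves out the spread between arrays. A raw intensity of at least 65000 was taken as saturated. The number of arrays limits the precision.

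All members and probes are reported. In each pathway list up to 3 genes per direction by adjusted p may be named, and all MAP kinases and ERK feedback genes. Members and lists were chosen with earlier results of these data known. The code of the fit was run on simulated data with independent normal errors and changes added to brighter probes only. That setting has no deviations shared between arrays and no changed dim probes, so it does not bear on how the fit handles these. Alternatives were 4 other scalings (median, 75th percentile, cyclic loess, the authors' values), offsets of 16 and 100, a filter on probes at flag 0 on at least 3 arrays, eBayes with trend and robust settings, a replicate block, each array left out, and gene means over probes. Promoters and coordinates are from RefSeq, GRCh38.p14; the authors' files hold none. Probe sequences were not used here.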

Additional observations from a re-analysis of the deposited data

Results flagged for a closer look

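A probe that the platform annotation gives to both DUSP8 and GLUD1P3 stands outside the member rule, which takes single-symbol probes, and was flagged as a signal outside the comparisons. Its raw intensities were 1174, 1288 and 1014 on control replicates 1, 2 and 3 and 4091, 3957 and 3523 on HOXA5 replicates 1, 2 and 3. All HOXA5 arrays lay above all control arrays. The probe rose by 1.86 ± 0.12 (limma, adjusted p = 0.000817), and it passed under all 15 alternatives with changes of 1.75 to 1.95 and an adjusted p of at most 0.00766. The single-symbol DUSP8 probe had a change of -0.01 ± 0.16. In RefSeq (GRCh38.p14), GLUD1P3 is a transcribed pseudogene at chr10:73730562-73731771, which shares 172 bases with the span of the pseudogene DUSP8P5 (chr10:73731600-73735340), while DUSP8 lies at chr11:1554051-1572848. Which of these transcripts the shared probe reads was not tested.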

How the results depend on the processing

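Over the alternatives, 165 results of member probes kept their direction and side of the threshold, 24 lost a call, 2 gained one and 3 changed sign (DUSP8: 0.04, 0.01 and 0.12 without control replicate 1, control replicate 2 and HOXA5 replicate 1). With 1 array left out the DUSP8 change ran from -0.15 to 0.12. Member probes that rose numbered 3 to 6 with 1 array left out (6 with all), and member genes that rose 3 to 5 (5 with all). With all arrays 1 member probe and 1 member gene fell. These counts became 0 with median scaling, 75th percentile scaling, cyclic loess and the trend and robust fit. With 1 array left out they were 0 to 1, not always from the same probe. Without control replicate 1 DUSP2 fell (limma, adjusted p = 0.0427), and without HOXA5 replicate 3 the brighter DUSP7 probe (0.0238). Without control replicate 3 only the dim DUSP7 probe fell (0.0123), which does not stand for its gene. Over the pathway lists, 29 genes rose and 13 fell. With the authors' scaled values 16 rose and 4 fell, against 5.79% and 5.71% of all genes. With 1 array left out 18 to 34 rose and 5 to 18 fell. The shares of all genes were then 7.56% to 15.3% and 5.85% to 14.3%. Where an array is left out, fewer samples enter the fit; the cause of the other changes was not tested. Replicate numbers are shared by the groups, but same-numbered arrays deviated together with correlations of -0.11, 0.57 and 0.64, so not every pair exceeded 0.1 and the numbers were not taken as pairing. Control replicate 2 with HOXA5 replicate 3 had -0.52, and control replicate 3 with HOXA5 replicate 2 had -0.68. Replicates 2 and 3 thus deviated alike in both groups, which the main fit does not model, and the source of this was not tested. With the replicate block 7756 probes passed in place of 6512, 6 member probes rose and 1 fell, and 34 pathway genes rose and 16 fell. Dim probes limit DUSP10 to a bound. The second probes of DUSP7 and DUSP16 lie near background on at least 1 array.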

Other observations

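Where a MAP kinase pathway gene has several probes, these did not always move together. The MAPK9 probe that fell had raw intensities of 520, 440 and 382 on control and 165, 143 and 114 on HOXA5 arrays, and with 1 array left out its change was -1.42 to -1.22 with an adjusted p of at most 0.0157 (limma). The remaining MAPK9 probe had 0.74 ± 0.21 (adjusted p = 0.0614, and 0.00717 without HOXA5 replicate 2). The probe that stands for MAPK14, which encodes p38 alpha, had a change of -0.14 ± 0.14 (limma, adjusted p = 0.567), while its other probe, with raw intensities of 250, 240 and 191 on control and 494, 377 and 278 on HOXA5 arrays, rose by 0.70 ± 0.09 (adjusted p = 0.00629). PPM1A, a phosphatase that acts on p38 and JNK, rose at the probe that stands for it (0.76 ± 0.10) and had -0.07 ± 0.10 at a second (adjusted p = 0.678). Its remaining probe, dim on 1 control array and on all HOXA5 arrays, did not pass (adjusted p = 0.330). Both RPS6KA2 probes rose (1.61 and 1.73). Which transcripts these probes read was not tested.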
